A study of Mus musculus with 12 samples.

Results

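The 10 genes described here make, recycle and spend glutathione, or switch on the genes that do. They are Slc7a11, Gclc, Gclm, Gss, Gsr, Gpx1, Gpx4, Gstm1, Gstm5 and Nfe2l2, taken by symbol from the 24421 entries of the deposited expression table. All 10 were among the 15464 genes that reached a normalized count of 10 in at least 3 libraries and were tested. The libraries hold RNA of GFP-positive cells sorted from the cerebellum of Aldh1l1-GFP mice at postnatal day 1 (P1), 7 (P7), 14 (P14) and 28 (P28), with 3 libraries per age and 12 in all. The mice were of both sexes, kept on a C57BL/6J background, and the labels set the groups apart by age alone, with no treatment named. Library depth ranged from 6399499 to 14733985 gene reads. Entries with at least 1 read numbered 17464 to 17785 in the P1 libraries and 17715 to 18051 in those of P7. There were fewer at the later ages, 16197 to 16642 at P14 and 14249 to 14749 at P28, which bears on falls of low genes. The GFP follows the promoter of Aldh1l1, a folate enzyme of astrocytes, and the sort takes whatever cells carry the protein. The sources used here do not say whether the libraries of an age came from separate animals, so the p-values measure the spread between these libraries, which may be in part technical.

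Glutathione is a small peptide of glutamate, cysteine and glycine that cells hold in large amounts to reduce peroxides and to tag reactive compounds for export. Astrocytes are known as the main glutathione store of the brain: they import cystine through the exchanger encoded by Slc7a11, release glutathione, and so supply neurons with its building blocks. The transcription factor NRF2, encoded by Nfe2l2, binds the antioxidant response element in front of many of these genes when its partner KEAP1 lets go of it.

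Between P7 and P14 the levels of 5 of the 10 genes rose, and none of the 10 fell, beside 10.8% higher and 10.0% lower of all genes tested. Gstm1, a glutathione transferase, had the largest changes of the 10 in all 3 consecutive steps, down from P1 to P7 and up at both later steps. Nfe2l2 rose at both later steps, and Gss, the last enzyme of glutathione synthesis, rose at P14 and fell again by P28. The other enzymes of synthesis and recycling, Gclc, Gclm and Gsr, and the peroxidase Gpx1 and the importer Slc7a11, passed the test in none of the steps.

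**Figure D1:**
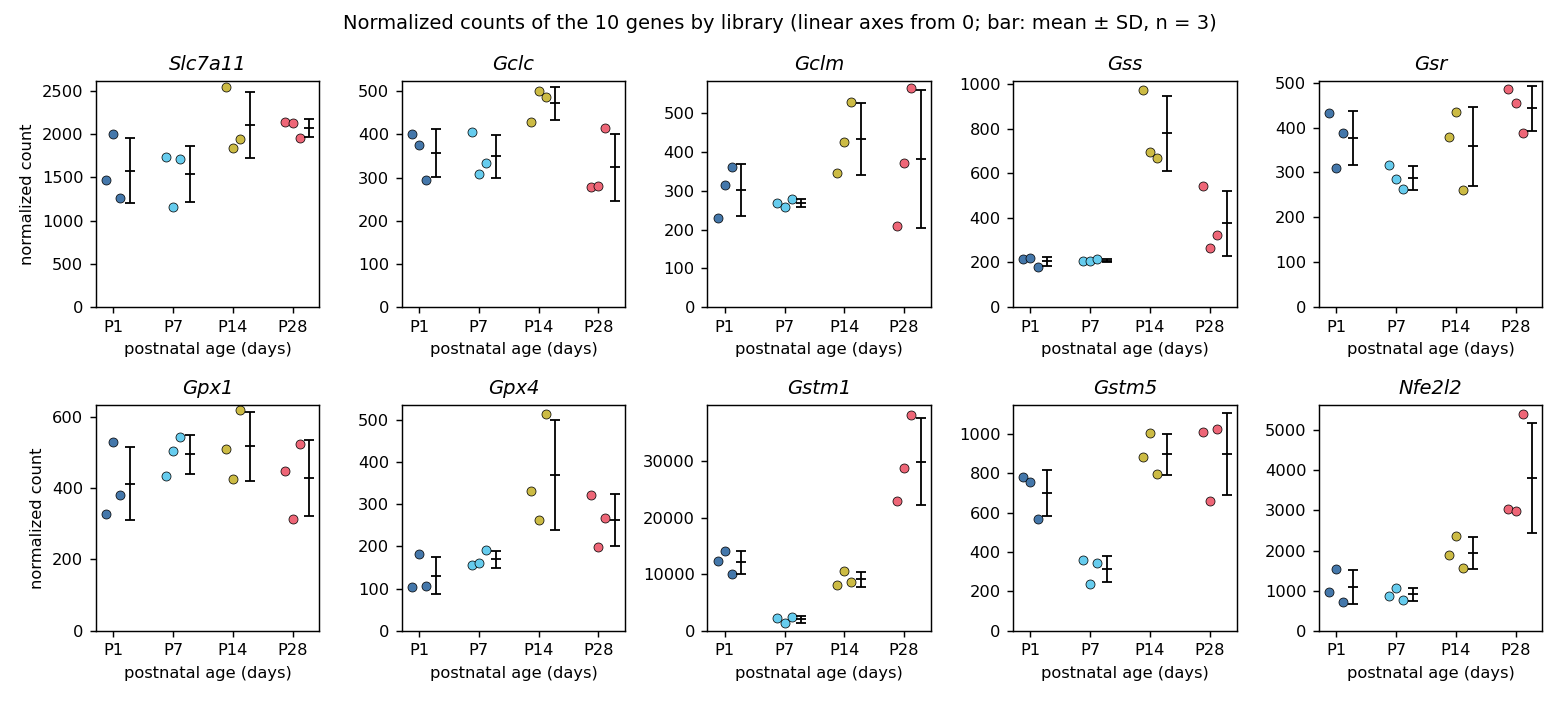
Normalized count (linear axis from 0) of each of the 10 genes in every library at P1, P7, P14 and P28; the black bars give mean ± SD of 3 libraries. Gstm1 was between 1343 and 2471 at P7 and between 22888 and 38110 at P28, while Gpx1 stayed between 314 and 618 in all libraries.

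The promoters show which of these genes carry the letters that NRF2 and the amino acid response factor ATF4 are known to bind. RefSeq promoters on GRCm38.p6, reaching from 250 bases before a start to 50 bases after it, were at hand for 8 of the 10 genes (12 promoters), all but Gclc and Gsr. The antioxidant response element was searched as TGACNNNGC on both strands, and 12.4% of 32851 mouse promoters of this length held it. It lay in 3 of the 12 promoters, namely those of Gclm, Gstm5 and Nfe2l2. These stretches are given on the strand of the gene with the match in capitals, since they belong to those of the 8 genes searched that hold such letters in this window.
Gclm, chr3:122245398-122245456, plus strand, match 134 to 126 bases before the start, read on the opposite strand: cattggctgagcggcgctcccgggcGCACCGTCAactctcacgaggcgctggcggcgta
Gstm5, chr3:107895787-107895845, plus strand, match 42 to 34 bases before the start: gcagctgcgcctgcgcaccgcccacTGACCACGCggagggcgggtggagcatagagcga
Nfe2l2, chr2:75704870-75704913, minus strand, match 240 to 232 bases before the start: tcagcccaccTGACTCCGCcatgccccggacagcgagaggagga
The promoters of Gss, Gpx1, Gpx4, Gstm1 and Slc7a11 held no match in this window.

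In Slc7a11 the letters TGATGNAA, the core that ATF4 is known to bind, occurred once on each strand, 66 to 59 and 47 to 40 bases before the start. Of all promoters, 3.97% held these letters on either strand, against 1 of the 12 here, 8.33%, and they do not overlap the NRF2 letters. The stretch, with both matches in capitals, is given because Slc7a11 is the only one of the 8 genes searched that holds them in this window.
Slc7a11, chr3:50443628-50443704, minus strand: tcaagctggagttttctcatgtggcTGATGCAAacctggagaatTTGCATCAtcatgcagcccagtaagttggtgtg
A match of letters is a description of the sequence and not a bound site.

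Gstm1 (GRCm38 chromosome 3, 108012255 to 108017973, minus strand) encodes a mu-class transferase that joins glutathione to reactive compounds and is known as an astrocyte product. Its normalized counts were 12317, 14083 and 10015 in the P1 libraries and 2196, 1343 and 2471 at P7. They were 8053, 10535 and 8687 at P14 and 22888, 28700 and 38110 at P28. Every P7 library lay below all others and every P28 library above all others, while P1 and P14 shared part of their range. The level at P7 was 0.161 of that at P1 (log2 fold change -2.63 ± 0.23 SE, adjusted p = 2.13e-05 by limma). It then rose 4.66-fold to P14 (log2 2.22 ± 0.23, adjusted p = 1.33e-05) and a further 3.24-fold to P28 (log2 1.70 ± 0.23, adjusted p = 6.31e-04). P28 was 2.43-fold above P1 (adjusted p = 7.68e-04). Ranked by mean level among all entries of the table, Gstm1 stood at place 39 in the P1 libraries, then 743, then 93 by P14, and 33 at the oldest age. Its share of all reads was 0.115% to 0.154% in the P1 libraries and 0.0160% to 0.0281% in those of P7. It was 0.0794% to 0.101% at P14 and reached 0.197% to 0.302% by P28. Of its transcript, 14.8% of the 75-base windows also occur in Gstm2-ps1, Gstm3 or Gm8834, and Gstm3, the one of these in the table, had means of 8.66, 1.55, 0.715 and 2.72 in order of age.

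Gstm5 (chromosome 3, 107895821 to 107898686, plus strand) encodes a further mu-class transferase and lies near Gstm1. Its normalized counts were 782, 754 and 566 at P1, 358, 240 and 343 at P7, 885, 1006 and 797 at P14, and 1013, 660 and 1024 at P28. The P7 libraries again lay below all others, and P28 overlapped both P1 and P14. The level at P7 was 0.446 of that at P1 (log2 -1.16 ± 0.24, adjusted p = 0.00772), and it rose 2.88-fold to P14 (log2 1.53 ± 0.24, adjusted p = 4.13e-04). From P14 to P28 the log2 difference was -0.02, with a 95% interval from -0.53 to 0.50. In contrast to Gstm1, the P28 level was thus not shown to be above P1 (log2 0.35 ± 0.24, adjusted p = 0.286). Gstm5 overlaps 4933431E20Rik, an antisense gene on the other strand that shares 7.83% of its windows. Whether the counting used strand is not stated, so the reads of both cannot be told apart there. The antisense gene had mean levels of 303, 159, 449 and 441 at P1, P7, P14 and P28.

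Nfe2l2 (chromosome 2, 75675513 to 75704641, minus strand) encodes NRF2, the transcription factor of the antioxidant response. Its normalized counts were 975, 1545 and 717 at P1 and 862, 1076 and 777 at P7, and these ranges overlapped. They were 1885, 2363 and 1558 at P14 and 3034, 2982 and 5396 at P28, so that each of these ages lay above the ones before it without overlap. Nfe2l2 rose 2.13-fold from P7 to P14 (log2 1.09 ± 0.29, adjusted p = 0.0140) and 1.92-fold from P14 to P28 (log2 0.94 ± 0.29, adjusted p = 0.0417). Over the whole span it was 3.56-fold higher at P28 than at P1 (adjusted p = 2.28e-04). The last step rests in part on P28 replicate 3: without that library it was 0.66 on the log2 scale (adjusted p = 0.129). It also missed the threshold without P14 replicate 1 (adjusted p = 0.103), 2 (0.0502) or 3 (0.152), P1 replicate 1 (0.0566), or P7 replicate 1 (0.0576) or 3 (0.0539), and with only the 2 ages in the fit (0.0502). The P7 to P14 step missed it without P7 replicate 3 (0.0625) or P14 replicate 2 (0.0724).

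Synthesis begins outside the cell with cystine. Slc7a11 (chromosome 3, 49892526 to 50443614, minus strand) encodes the cystine and glutamate exchanger xCT. Its normalized counts were 1468, 1999 and 1266 at P1, 1735, 1163 and 1715 at P7, 2546, 1839 and 1947 at P14, and 2144, 2124 and 1958 at P28. The P14 and P28 libraries all lay above the P7 ones, though the P14 to P7 difference did not pass the test (log2 0.47, 95% interval 0.02 to 0.91, adjusted p = 0.138). P28 differed from P1 by 0.42 on the log2 scale (adjusted p = 0.132), and without P1 replicate 2 by 0.60 (adjusted p = 0.0455).

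Gclc and Gclm encode the catalytic and the modifier subunit of glutamate-cysteine ligase, the enzyme that sets the rate of synthesis. Gclc (chromosome 9, 77754535 to 77794485, plus strand) had normalized counts of 400, 374 and 294 at P1, 405, 308 and 335 at P7, 429, 500 and 488 at P14, and 278, 280 and 414 at P28. Its P14 libraries were above all others, but neither the step up (log2 0.44, 95% interval -0.09 to 0.98, adjusted p = 0.252) nor the step down (log2 -0.57, -1.10 to -0.03, adjusted p = 0.144) passed after adjustment over all genes. Scaled to library totals alone, the step down was -0.80 on the log2 scale and passed (adjusted p = 0.0373). Gclm (chromosome 3, 122245557 to 122270732, plus strand) had normalized counts of 229, 316 and 363 at P1, 269, 259 and 278 at P7, 345, 426 and 530 at P14, and 210, 373 and 565 at P28. The spread at P28 was wide (383 ± 178, SD, n = 3), and the P7 to P14 difference of 0.67 on the log2 scale had an adjusted p of 0.193. With only the P7 and P14 libraries in the fit, its adjusted p was 0.0396. It overlaps the antisense gene Gm17494, as Slc7a11 does Gm37854, and neither of these was analysed here. Per kilobase of exon, the catalytic subunit was at 94.5 ± 14.7 and the modifier at 48.1 ± 10.8 at P1 (normalized count per kilobase, mean ± SD, n = 3).

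Gss (chromosome 2, 155563181 to 155592810, minus strand) encodes glutathione synthetase, which adds glycine in the last step. Its normalized counts were 214, 220 and 182 at P1 and 205, 205 and 216 at P7, then 974, 696 and 670 at P14 and 542, 265 and 323 at P28. The P14 libraries lay above all others, and those of P28 above all of P1 and P7. Gss rose 3.67-fold from P7 to P14 (log2 1.88 ± 0.29, adjusted p = 3.28e-04) and dropped to 0.468 of that level at P28 (log2 -1.09 ± 0.29, adjusted p = 0.0220). The fall missed the threshold without P14 replicate 1 (adjusted p = 0.0939) or P28 replicate 2 (0.0506) and with only the P14 and P28 libraries in the fit (0.0802), and the P28 level was 1.75-fold that of P1 (adjusted p = 0.0417, 0.323 when scaled to library totals alone, and 0.153 with only the 2 ages in the fit). That difference also missed it without any 1 of the P1 or P7 replicates, P14 replicate 2 or P28 replicate 1 (0.0529 to 0.139). The gene overlaps Acss2 on the other strand, with which it shares 2.70% of its windows, and the antisense genes Gssos1 and Gssos2, which were not analysed here. Acss2 had means of 238, 228, 394 and 498 and did not pass the test from P7 to P14 (log2 0.75, adjusted p = 0.307).

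Gsr (chromosome 8, 33652523 to 33698163, plus strand) encodes glutathione reductase, which returns the oxidised peptide to its reduced form with NADPH. Its normalized counts were 431, 311 and 388 at P1, 316, 285 and 262 at P7, 378, 435 and 262 at P14, and 485, 454 and 388 at P28. The P28 libraries lay above those of P7, with P14 spread across both. No step passed. The 95% interval of the log2 difference was -0.93 to 0.17 for P7 against P1, -0.26 to 0.84 for P14 against P7, and -0.22 to 0.88 for P28 against P14.

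Gpx1 and Gpx4 encode selenium-containing peroxidases that use glutathione, Gpx1 on soluble peroxides and Gpx4 on lipid peroxides within membranes. Gpx1 (chromosome 9, 108338903 to 108340343, plus strand) had normalized counts of 329, 528 and 381 at P1, 435, 504 and 544 at P7, 508, 424 and 618 at P14, and 447, 314 and 525 at P28. All 4 ages overlapped, and the log2 differences of the 3 steps were 0.28, 0.05 and -0.28, each with a 95% interval that held 0. Gpx4 (chromosome 10, 80047166 to 80056439, plus strand) had normalized counts of 104, 181 and 105 at P1, 155, 161 and 192 at P7, 330, 262 and 514 at P14, and 322, 198 and 268 at P28. All P14 and P28 libraries lay above those of P1 and P7. It rose 2.09-fold from P7 to P14 (log2 1.07 ± 0.35, adjusted p = 0.0456) and was 2.04-fold higher at P28 than at P1 (adjusted p = 0.0364). The P14 step is close to the threshold. Scaled to library totals alone it was 0.81 on the log2 scale (adjusted p = 0.118). It also missed the threshold without P1 replicate 1 (adjusted p = 0.0547) or 3 (0.0545), P7 replicate 1 (0.140), 2 (0.124) or 3 (0.0889), or P14 replicate 1 (0.0856) or 3 (0.183). The difference between P28 and P1 missed it without P1 replicate 1 or 3, any 1 of the P7 replicates, or P28 replicate 1 or 3 (0.0505 to 0.122), scaled to library totals alone (0.191) and with only the 2 ages in the fit (0.124). Of the Gpx4 transcript, 55.3% of the windows also occur in the pseudogene Gpx4-ps2, which was not analysed here, so its level is uncertain.

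Compared per kilobase of exon, Gstm1 was far above the rest at each age, with 8241 ± 1385 at P1, 1360 ± 399 by P7, then 6172 ± 876 and, at P28, 20298 ± 5215 (normalized count per kilobase, mean ± SD, n = 3). Gstm5 followed at P1 with 548 ± 92.1 and at P14 with 701 ± 82.1. At P7 the next in order were Gpx1 at 343 ± 38.4, Gstm5 at 245 ± 50.6 and Nfe2l2 at 238 ± 40.5, and the last of these differed by less than their spread. At P28 Nfe2l2, at 1002 ± 363, stood next to Gstm5 at 703 ± 162, again within the spread. On this scale the lowest of the 10 were Gss at P1 (34.7 ± 3.49) and P7 (35.3 ± 1.10), and Gclm at P14 (69.0 ± 14.7) and P28 (60.8 ± 28.2). At P28, Gss at 63.7 ± 24.7 was within the spread of Gclm. The lengths were those of all merged exons of a gene, for Gss 5915 bases against 3258 in its longest transcript. The order of genes at close levels, that of Gss and Gclm at P1 and P7 among them, depends on this choice of length.

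**Figure D2:**
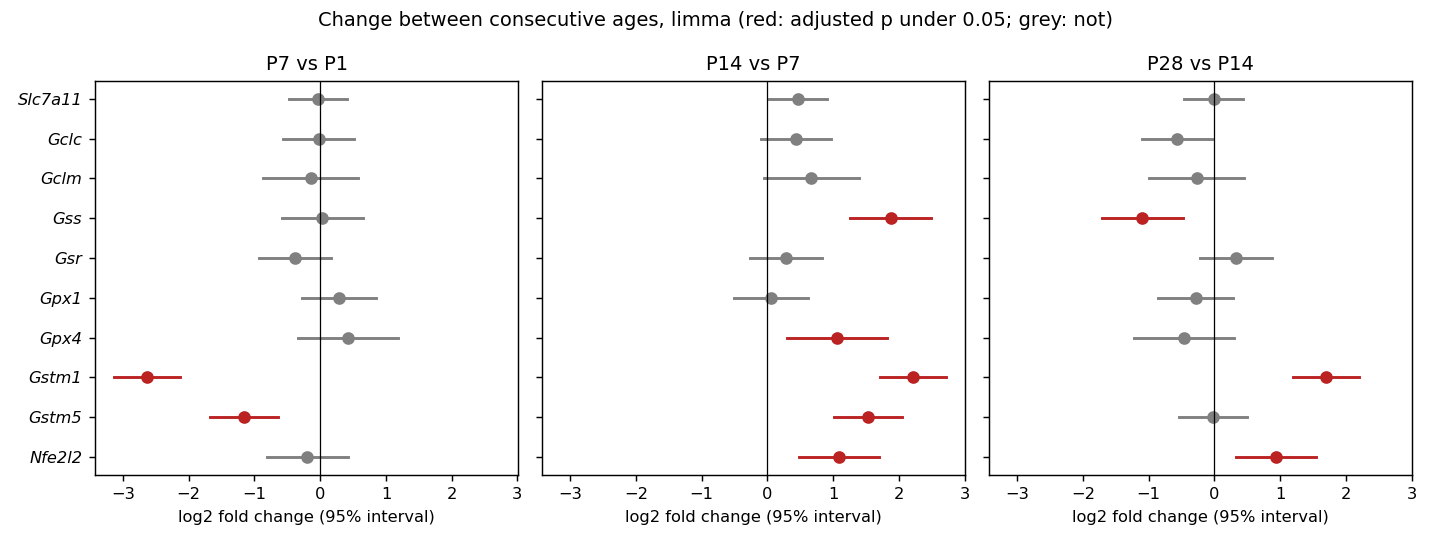
Log2 fold change of each gene (dots) with its 95% interval (lines) in the 3 consecutive steps, from limma over all 15464 genes tested. Red marks an adjusted p under 0.05: Gstm1 and Gstm5 are red to the left at P7, 5 genes are red to the right at P14, and Gstm1, Nfe2l2 (right) and Gss (left) at P28.

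Counted over the 10 genes, the step from P1 to P7 had 0 higher and 2 lower, beside 3.47% higher and 4.24% lower of all genes tested. From P7 to P14, 5 were higher and 0 lower, beside 10.8% and 10.0% of all genes, and the median log2 change of the 10 was 0.87 against -0.09 over all genes. In 8 of the 10 every P14 library was above every P7 library, as it was in 21.3% of all genes tested. The exceptions were Gsr and Gpx1. From P14 to P28, 2 were higher and 1 lower, beside 5.68% and 8.76%, and from P1 to P28, 4 were higher (Gss, Gpx4, Gstm1 and Nfe2l2) and 0 lower, beside 14.6% and 20.0%. The count at P14 was 3 without P7 replicate 3, and that at P28 against P14 was 1 without P14 replicate 1. That over the whole span was 2, Gstm1 and Nfe2l2, without any 1 of P1 replicates 1 and 3, P7 replicates 1, 2 and 3, and P28 replicate 1. Scaled to library totals alone, the median of all genes moved to -0.34 from P7 to P14, to -0.35 from P14 to P28 and to -0.66 from P1 to P28. On that scale 2 of the 10 were called from P1 to P28, again those genes, and Nfe2l2 from P14 to P28 had a log2 change of 0.70 (adjusted p = 0.0970).

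The sorted cells held RNA of astrocyte markers and of markers of other cell types, and both moved with age. The 11 astrocyte markers had a summed normalized count of 64414 to 84772 in the P1 libraries and of 30565 to 56315 in those of P7. The sum was 160110 to 197748 by P14 and 364710 to 432465 by P28, with none of the 11 at 0 in any age. From P1 to P7, 1 of them rose and 7 fell, 9 rose and 0 fell from P7 to P14, and 8 rose and 0 fell from P14 to P28. The 9 oligodendrocyte markers summed to between 1528 and 2374 at P1 and to between 21834 and 33636 by P7. At P14 their sum lay between 315592 and 372650, and by P28 between 102700 and 142261. The 7 genes listed for granule neuron precursors, which include the cell division genes Mki67 and Top2a, summed to 22630 to 27788 in the P7 libraries. A week later their sum was 1127 to 2288. Atoh1, the first gene of the list, was only 30.3 to 45.0 at P7 and 0 at P14. From P7 to P14, 1 of the 7 rose and 5 fell. In RNA of bulk samples such as these, fewer cells of a type and less RNA per cell cannot be told apart. The 10 genes of the dissociation and stress list had a summed median of 58756 at P1, 33836 in the P7 libraries, 29887 by P14 and 19196 at the oldest age. Of them, 0 rose and 2 fell from P1 to P7, 3 rose and 0 fell in the next step, and 2 rose and 5 fell in the last, and their part in the results was not tested. The choroid plexus and ependymal sum, mostly Ttr, ran from 1140 to 108808 within P14.

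Gstm1 and the sum of the astrocyte markers moved the same way in each of the 3 steps. Single markers differed: Aldh1l1, whose promoter drives the GFP, had medians of 4741, 1488, 1834 and 2974 in order of age. It was thus highest at P1, and it passed the test neither from P7 to P14 nor from P14 to P28. Gss and the oligodendrocyte markers were both highest at P14. So were the sums of other marker lists. The median at P7, P14 and P28 was 18200, 33892 and 23602 for the neuron markers and 4690, 12226 and 6345 for those of granule neurons. It was 1624, 2833 and 1766 for microglia and 2357, 5490 and 4535 for endothelial cells. The part of any of these cell types in the changes was not tested. As a description over the 12 libraries, which share their depth and cell mix, the tested genes with the most similar log2 profile to Gstm1 were Oat (Pearson r = 0.987), which encodes ornithine aminotransferase, and Myo6 (0.983), a myosin. For Gss they were Lgi3 (0.973) and Susd6 (0.964). For Gstm5 they were Slc6a9 (0.975), the glycine transporter GLYT1, and Ivd (0.965), an enzyme of leucine breakdown. For Nfe2l2 they were Pigp (0.976) and Abhd5 (0.963), and for Gpx4 Kif13b (0.950) and Zfp931 (0.937). The closest matches of the other 5 genes were looser: Hlf for Slc7a11 (0.875), Rragb for Gclm (0.926), Tcta for Gclc (0.853), Samd8 for Gsr (0.892) and Riok3 for Gpx1 (0.870), each the best of 10202 candidates. Among the 10 genes themselves, Gstm1 was most like Gstm5 (0.866), and Gss most like Gpx4 (0.841). Gsr and Gpx1 were negatively correlated over the 12 libraries (-0.715), though neither passed the test in any step.

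**Figure D3:**
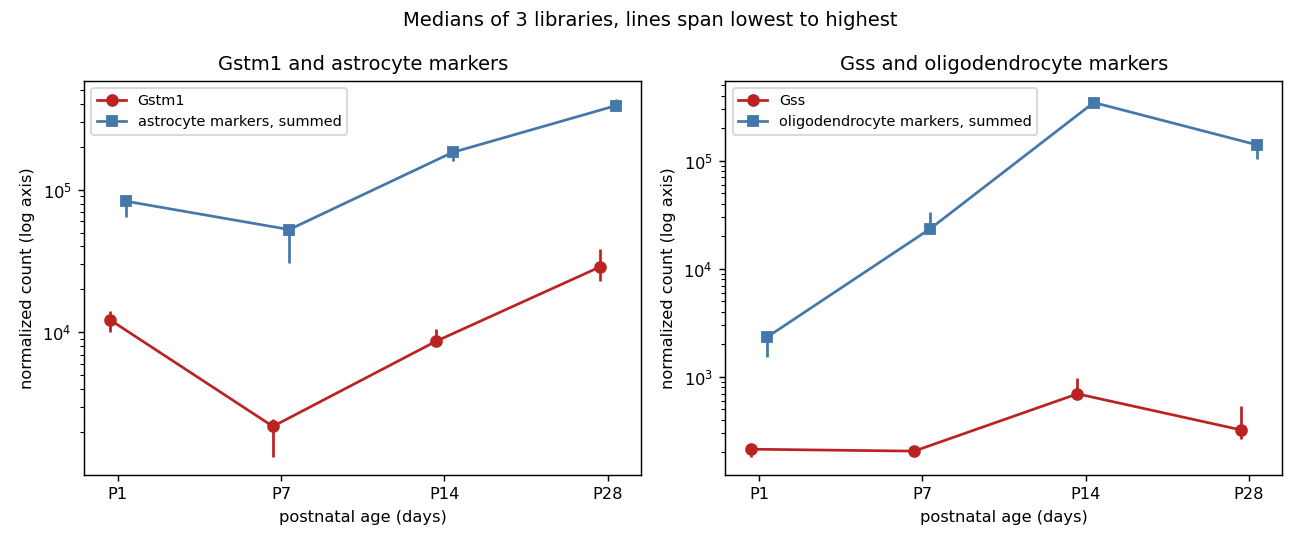
Normalized count on a log axis of Gstm1 with the summed astrocyte markers (left) and of Gss with the summed oligodendrocyte markers (right) by age; points are medians of 3 libraries and lines span lowest to highest. Gstm1 and the summed astrocyte markers are lowest at P7 and highest at P28, though Aldh1l1 alone was highest at P1. Gss and the summed oligodendrocyte markers are highest at P14, as were 4 further marker sums that are not drawn.

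Around the 10 genes, 141 further genes of 9 related lists were tested. From P1 to P7, 0 of them rose and 14 fell (9.93%, against 4.24% of all genes). From P7 to P14, 25 rose and 4 fell (17.7% and 2.84%, against 10.8% and 10.0%). From P14 to P28, 11 rose and 13 fell (7.80% and 9.22%, against 5.68% and 8.76%), and from P1 to P28, 28 rose and 19 fell (19.9% and 13.5%, against 14.6% and 20.0%).

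**Figure D4:**
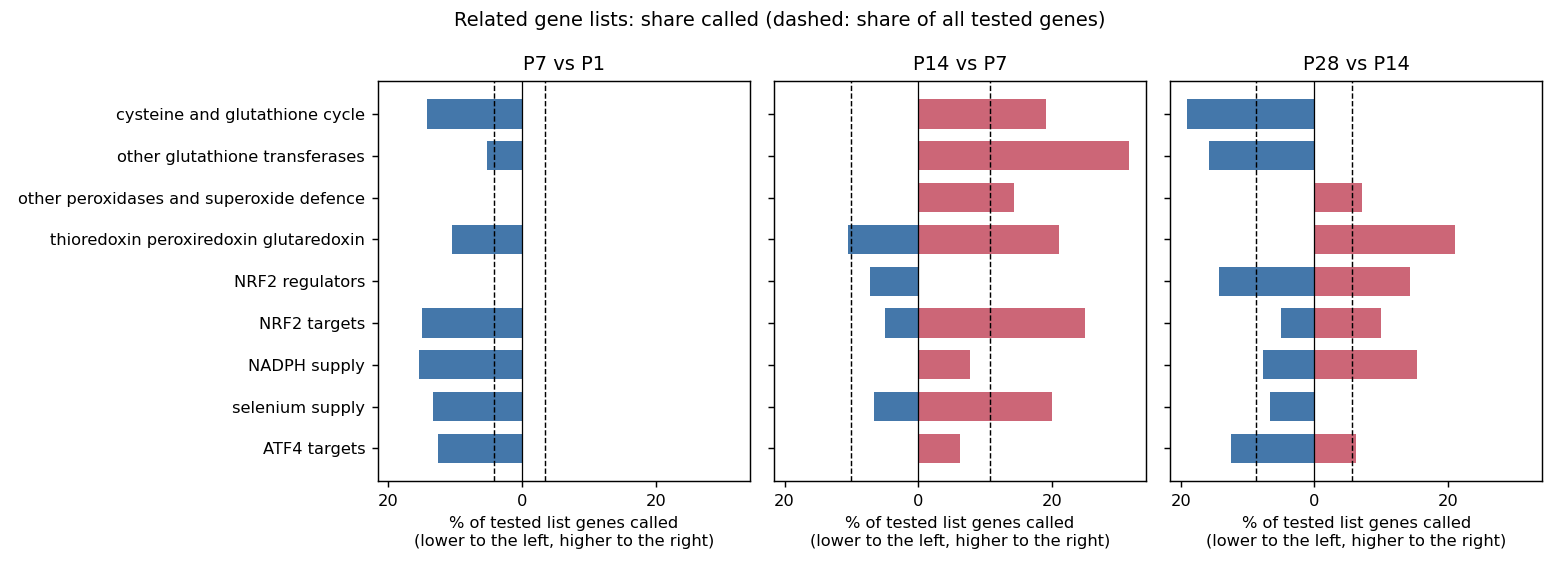
Share (%) of the tested genes of each of 9 related lists called higher (red, right) or lower (blue, left) in the 3 consecutive steps; dashed lines give the share of all genes tested. No list has a red bar at P7, where 14 of the 141 genes fell, and the other glutathione transferases have the longest red bar at P14, 6 of 19.

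Of 19 other glutathione transferases tested, 6 rose from P7 to P14 and 0 fell. The count of 6 was 2 without P7 replicate 2 or 3 or P14 replicate 2, 3 without P7 replicate 1, and 8 with only the P7 and P14 libraries in the fit. Their median log2 change was 1.03, against -0.09 over all genes. Gsta4, a transferase for lipid peroxidation products, had mean normalized counts of 486, 287, 901 and 1430 at P1, P7, P14 and P28 and rose from P7 to P14 by 1.68 on the log2 scale (adjusted p = 0.00126). The pi-class genes Gstp1 (1.24, adjusted p = 0.0426) and Gstp2 (1.13, adjusted p = 0.0229), near-identical copies whose reads may be split, rose in the same step. Gsto2 rose from 6 reads over the P7 libraries to 110 at P14 (adjusted p = 0.0132), and Gstm7 and Mgst3 completed the 6. Scaled to library totals alone, Gstp1 had a log2 change of 0.99 (adjusted p = 0.105) and Gstp2 of 0.87 (adjusted p = 0.0743). Gstp1 missed the threshold without P1 replicate 1 or any 1 of the P7 and P14 replicates (adjusted p from 0.0566 to 0.134). Gstp2 missed it without P7 replicate 1 or 3 or P14 replicate 1 or 2 (0.0604 to 0.0912), and Gsto2 without P7 replicate 2 (0.0644). Only Mgst1 fell among the 19 from P1 to P7. From P14 to P28, Gstm7 (adjusted p = 0.0494), Mgst3 (0.0354) and the prostaglandin D synthase Hpgds (-2.80, adjusted p = 0.00769) fell. Hpgds did not pass with only those 2 ages in the fit, and the count of 3 ranged from 0 to 3 over the alternatives.

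In the cysteine and glutathione cycle, 3 of 21 genes fell from P1 to P7 (Slc1a4, Cbs and Glul), 4 rose from P7 to P14 (among them Cbs, Lap3 and Glul) and 4 fell from P14 to P28 (among them Slc1a1, Ggt1 and Ggt5). Glul, the glutamine synthetase of astrocytes, had means of 6921, 2468, 10926 and 15459 at the 4 ages. It fell at P7 (-1.48, adjusted p = 3.16e-04) and rose at P14 (2.16, adjusted p = 3.11e-06), and P28 against P14 was 0.50 (adjusted p = 0.0921). Slc1a4, a carrier of neutral amino acids, fell from a mean of 2935 at P1 to 1255 at P7 (adjusted p = 0.00606) and was 1014 at P28. Mat2a, which makes the methyl donor upstream of cysteine, stayed between 2443 and 3314 and passed in no step. Ggt1 and Ggt5, which encode surface enzymes that break down glutathione, were low. In the same list, Ggt7 was higher, with means of 84.3 to 141, and so was the peptidase gene Anpep, with means of 282 to 575. Ggt1 went from 108 reads over the P14 libraries to 1 at P28 (adjusted p = 0.00362), and Ggt5 from 116 reads to 13, all in 1 library (adjusted p = 0.0227). The fall of Ggt5 missed the threshold without P14 replicate 1 or 2 or P28 replicate 1 or 3 (0.0538 to 0.0816), or with only the 2 ages in the fit (0.133).

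Of 19 thioredoxin, peroxiredoxin and glutaredoxin genes, 2 fell from P1 to P7 (Txnip and Sesn3). From P7 to P14, 4 rose (Prdx1, Prdx3, Prdx6 and Sesn1) and 2 fell (Txnrd1 and Prdx2), and from P14 to P28, 4 rose (Txn2, Prdx1, Prdx6 and Sesn3) and 0 fell. Prdx6, a peroxiredoxin that uses glutathione, had means of 794, 473, 1291 and 3239 and rose in both steps (1.42, adjusted p = 9.24e-04, then 1.37, adjusted p = 0.00333). Prdx1 rose in both as well (0.72 and 0.85, adjusted p = 0.00620 and 0.00483), though scaled to library totals alone the earlier rise was 0.46 (adjusted p = 0.0606), and Sesn1 rose in the earlier of them (0.96, adjusted p = 0.0110). Txnrd1, the cytosolic thioredoxin reductase, went the other way at P14, with means of 542, 942, 211 and 342 (-2.18, adjusted p = 1.69e-04). Txnip, an inhibitor of thioredoxin, fell from P1 to P7 by 1.64 (adjusted p = 0.00605).

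Among 14 other peroxidase and superoxide genes, 0 changed at P7, 2 rose at P14 and 1 rose at P28. These were Sod3, the secreted superoxide dismutase (2.15, adjusted p = 0.00408), and Cat, catalase (0.69, adjusted p = 0.00385), at P14, and Sod2, the mitochondrial dismutase, at P28 (0.81, adjusted p = 0.0208, and 0.0602 or 0.0549 without P14 replicate 1 or 3). Sod2 also missed the threshold when scaled to library totals alone (0.58, adjusted p = 0.0767) and with only the P14 and P28 libraries in the fit (0.106). Sod1, the cytosolic form, had means of 1223, 1102, 931 and 1395 and passed in no step.

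Of 14 regulators and relatives of NRF2, none changed from P1 to P7 and 1 fell from P7 to P14, Cul3, the scaffold of the ligase that degrades NRF2 (-0.51, adjusted p = 0.0184, and 0.0647 to 0.0733 without P7 replicate 1 or 3 or P14 replicate 1). From P14 to P28, 2 rose and 2 fell. Nfe2l1, which encodes the related factor NRF1, rose from 1899 to 3709 (0.97, adjusted p = 0.00208), and Btrc, part of another ligase for NRF2, rose by 0.70 (adjusted p = 0.0434). The rise of Btrc missed the threshold without P1 replicate 1 or 3, any 1 of the P7 and P14 replicates, or P28 replicate 1 or 3 (0.0516 to 0.144), scaled to library totals alone (0.172) and with only the 2 ages in the fit (0.171). Nfe2l3 fell by 2.03 (adjusted p = 0.0144, and 0.0620 without P14 replicate 3 or 0.0930 with only the 2 ages in the fit). Nfe2 went from 38 reads over the P14 libraries to 0 at P28 (adjusted p = 0.00786). With a pseudocount of 10 its log2 change was -1.18 and missed the threshold (adjusted p = 0.0714). With each P28 library set to 3 reads, it was 3.37-fold below the P14 mean, the spread at P14 left aside.

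The 20 tested NRF2 target genes other than the 10 included 3 that fell from P1 to P7 (Me1, Slc6a9 and Aldh3a2). From P7 to P14, 5 rose (Me1, Fth1, Slc6a9, Aldh3a2 and Cbr3) and 1 fell (Txnrd1), and from P14 to P28, 2 rose (Me1 and Cbr1) and 1 fell (Taldo1). The count of 5 was 3 without P7 replicate 2. Over the alternatives, the 3 that fell at P7 ranged from 1 to 6 and the 2 that rose at P28 from 0 to 5. Aldh3a2 was close to the threshold at P7 (adjusted p = 0.0491). Over the whole span from P1 to P28, 8 rose and Ftl1 alone fell, beside 14.6% higher and 20.0% lower of all genes tested. The counts of this span were not recomputed under the alternatives. Of the 8, Nqo1 (adjusted p = 0.0468) and Aldh3a2 (0.0396) were close to the threshold. Fth1, the ferritin heavy chain, rose from 1977 at P7 to 6331 at P14 (1.73, adjusted p = 1.35e-04), while Ftl1, the light chain, had 3261 and 2817 and did not pass. Slc6a9 fell at P7 by 1.73 (adjusted p = 0.00337) and rose at P14 by 2.34 (adjusted p = 1.02e-04).

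Of 13 genes of NADPH supply, 2 fell from P1 to P7, 1 rose from P7 to P14, and 2 rose and 1 fell from P14 to P28. Me1, the cytosolic malic enzyme, passed in all 3 steps, with log2 changes of -0.73, 0.77 and 0.78 (adjusted p = 0.0399, 0.0138 and 0.0209). Each missed the threshold without some single libraries: the fall at P7 without P1 replicate 1 or 2, P7 replicate 2 or 3, or P14 replicate 1 or 2 (0.0521 to 0.177), the rise at P14 without P7 replicate 2 or 3 or P14 replicate 2 (0.0544 to 0.0670), and the rise at P28 without P14 replicate 3 (0.0780). Scaled to library totals alone, the 3 steps of Me1 were -0.68, 0.52 and 0.54 (adjusted p = 0.0569, 0.0796 and 0.0831), and with only P14 and P28 in the fit the last had an adjusted p of 0.0597. Nadk2, the mitochondrial NAD kinase, fell at P7 by 0.84 (adjusted p = 0.0218, and 0.0505 to 0.109 without any 1 of the P1 replicates or P7 replicate 2 or 3) and rose at P28 by 1.22 (adjusted p = 0.00222). Taldo1 was the gene that fell at P28 (-1.02, adjusted p = 0.0348, and 0.0540 to 0.118 without P7 replicate 1 or 3, P14 replicate 1 or 2, or P28 replicate 3, and 0.135 with only the 2 ages in the fit), and Tkt and Idh1 passed in none of the 3 steps.

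Peroxidases such as Gpx1 and Gpx4 need selenium. Of 15 tested genes of its supply, 2 fell from P1 to P7, 3 rose and 1 fell from P7 to P14, and 1 fell from P14 to P28. Sepp1, which encodes the selenium carrier selenoprotein P, had means of 6325, 4128, 9906 and 12093 and rose at P14 by 1.34 (adjusted p = 0.00127). Of the genes for its receptors, Lrp8 fell at P14 by 0.96 (adjusted p = 0.00459) and again at P28 (-1.57, adjusted p = 5.54e-04), and Lrp2 fell at P7 (-3.10, adjusted p = 0.0110). Selt rose at P14 (0.68, adjusted p = 0.00935, and 0.42, adjusted p = 0.0789, scaled to library totals alone), and Selm fell at P7 (-1.21, adjusted p = 0.0473) and rose at P14 (1.65, adjusted p = 0.00350). The fall of Selm missed the threshold without P1 replicate 1 or 2 or any 1 of the P7 and P14 replicates (adjusted p from 0.0522 to 0.227), and that of Lrp2 without P1 replicate 1 (0.0747) or P7 replicate 2 (0.0615).

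Of 16 genes of the ATF4 amino acid response, the program to which Slc7a11 also belongs, 2 fell at P7, 1 rose at P14, and 1 rose and 2 fell at P28. The serine synthesis genes Psat1 and Phgdh were those that fell at P7 (-1.61, adjusted p = 1.11e-04, and -1.40, adjusted p = 0.00221). Psat1 rose again at P14 (0.97, adjusted p = 0.00144). Phgdh, the first enzyme of that route, rose from P14 to P28 by 1.00 (adjusted p = 0.0130, and 0.0528 without P14 replicate 1). Atf3, a stress-induced factor (adjusted p = 0.0458), and Slc7a1, a carrier of cationic amino acids (0.0383), fell in that step. The count of 2 that fell at P28 ranged from 0 to 5 over the alternatives. Slc7a5, a carrier of large neutral amino acids, had means of 1566, 1404, 1473 and 1079 and passed in no step.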

How the data were processed

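Per the labels and the study's methods, the authors aligned the paired reads to mm10 with STAR (version 2.5.0a), counted them on UCSC transcripts and divided the counts by DESeq2 size factors. The submitters' processing notes give DESeq2 1.30.1, and the study's methods name another version of it. The deposited values are a signal, normalized counts per gene. Dividing each column by its smallest value above 0 gave whole reads for 100% of values (within 0.01 reads), 6399499 to 14733985 per library. The column names all carry P28, and ages were taken from the labels.

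Values were tested with limma (3.58.1, R 4.3.3) on log2(value + 1), 1 mean per age over the 12 libraries with a trended variance, for genes at 10 or more in at least 3 libraries. Benjamini-Hochberg adjusted p under 0.05 over all 15464 genes was the threshold. Fold changes on this scale understate changes of low genes. Alternatives were TMM or library totals, pseudocounts, filters, only the ages compared, the replicate block, other call rules, each library left out, and edgeR (4.0.16) and DESeq2 (1.42.0) on the recovered reads. On simulated counts of the P7 against P1 comparison, limma recovered 193 of 200 changed genes with 8 false calls among 15339 genes. The changed genes were all set to a log2 change of 2 in either direction, with the same dispersion for every gene. The simulation therefore does not show how well smaller changes, or those at P14 and P28, are recovered. A count of 0 allows up to 3 reads per library (95% confidence, counting error only).

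The 10 genes, the lists, the markers and the motifs were chosen with earlier results of these data known. Genes named beyond the 10 are the 3 most abundant of each list, its 2 called genes with the largest change, and those with the most similar profile to each of the 10. Other genes, such as 4933431E20Rik, Acss2, Gstm3 and the remaining members of small counts, were named after their values were seen. Results of some single genes are not given. Locations are from GENCODE M21 on GRCm38, the build of mm10.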

Additional observations from a re-analysis of the deposited data

How the results depend on the processing

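The number of the 10 genes called was recomputed under 24 alternatives. P7 against P1 gave 2 in all of them. P14 against P7 gave 3 to 5 with single libraries left out (3 without P7 replicate 3), 4 scaled to library totals alone and 6, Gclm added, with only the 2 ages in the fit, P28 against P14 gave 1 to 3 (1 without P14 replicate 1) and 1 with only the 2 ages in the fit, and P28 against P1 gave 2 to 4, with 2 scaled to library totals alone and 2 with only the 2 ages in the fit. The cause was not tested. Over all genes, the fits of only 2 ages called 2810 for P7 against P1 and 4744 for P14 against P7, beside 1191 and 3227. They called 863 for P28 against P14 and 3350 for P28 against P1, beside 2232 and 5350. Replicate numbers are shared between ages, but the 18 correlations of same-numbered libraries ran from -0.029 to 0.139 with 1 over 0.1, so the numbers were not taken as pairs. With the replicate block the counts were 2, 4, 3 and 4, and Gpx4 from P7 to P14 had an adjusted p of 0.0632.

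Scaled to library totals alone, the share of higher genes among all calls was 32.7% for P14 against P7, 19.0% for P28 against P14 and 20.9% for P28 against P1, beside 51.9%, 39.3% and 42.3%. That scaling turned the sign of uncalled log2 differences: P7 against P1 was 0.033 for Gclc and 0.025 for Slc7a11, P14 against P7 was -0.20 for Gpx1, and P28 against P1 was -0.18 for Gclm, -0.20 for Gsr, -0.38 for Gpx1, -0.090 for Gstm5 and -0.015 for Slc7a11. With DESeq2, P28 against P14 was 0.0038 for Gstm5.

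Leaving out single libraries turned the sign of other uncalled log2 differences, with these ranges. P7 against P1 ran from -0.16 to 0.065 for Gclc, -0.056 to 0.081 for Gss, -0.45 to 0.10 for Nfe2l2 and -0.18 to 0.16 for Slc7a11. P14 against P7 ran from -0.084 to 0.19 for Gpx1. P28 against P14 ran from -0.61 to 0.10 for Gclm, -0.13 to 0.19 for Gstm5 and -0.10 to 0.13 for Slc7a11. P28 against P1 ran from -0.085 to 0.63 for Gclm and -0.11 to 0.26 for Gpx1. In all, 27 of 880 values of the 10 genes changed sign and 46 changed side of the threshold. The calls of Gstm1, of Gstm5 at P7 and P14, and of Gss at P14 held in all 22 alternatives fitted for single genes. So did that of Nfe2l2 for P28 against P1, though not those of its single steps. Over all genes, edgeR on the recovered reads called 1084, 3053 and 1982 genes in the 3 consecutive steps, and for P7 against P1 DESeq2 called 1858, beside 1191 by limma.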
